A study of Mus musculus with 48 samples.

Results

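Haemoglobin and the enzymes that make its haem were followed in 48 Seq-Well single-cell libraries from joint, lung, muscle, skin, and spleen of male DBA1/J mice. The 8 genes were chosen by name among the 34586 genes of the table of unique molecular identifiers (UMIs), in which each UMI marks 1 captured RNA molecule, and all 8 were present. They were the globin genes Hba-a1, Hba-a2, Hbb-bs, and Hbb-bt, the haem synthesis genes Alas2, Alad, and Cpox, and the carbonic anhydrase gene Car2. The mice were 8 to 12 weeks old. The 6 mice with collagen-induced arthritis (CIA) had received 100 µg of bovine collagen II in complete Freund's adjuvant and a booster in incomplete adjuvant on day 20, and the 4 healthy mice had received saline. Joint libraries came from 3 healthy and 5 CIA mice and those of each other organ from 4 healthy and 6 CIA mice. Mice S1, S2, S3, and H3 belonged to the experiment named 2CIA and S5, S6, S8, H4, H6, and H7 to the experiment named CIA, so that severe disease (S1, S2, S3) and mild disease (S5, S6, S8) cannot be told apart from experiment. All organs had been frozen and thawed, and red blood cells had been lysed in all spleen samples, in none from joint, lung, or skin, and, according to the study's digestion records, in muscle of H6, H7, S2, S3, S6, and S8 only.

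Haemoglobin carries oxygen in red cells and is built of α chains and β chains, each holding a haem group. In the mouse reference genome, α chains are encoded by Hba-a1 and Hba-a2 and β chains by Hbb-bs and Hbb-bt. Which β-globin genes the DBA1/J mice carry was not examined. Haem is assembled in a chain of enzymatic steps, of which ALAS2 catalyses the first in erythroid cells, ALAD an early one in the cytosol, and CPOX a late one in mitochondria. ALAD and CPOX are made in most tissues, because all cells need some haem, whereas ALAS2 is largely specific to the erythroid lineage. Carbonic anhydrase 2, the product of Car2, converts carbon dioxide and water to bicarbonate in red cells, and is also made in osteoclasts and some epithelia. Mature red cells of mammals have no nucleus and keep little RNA, whereas their nucleated precursors, which in mice are also found in the spleen, and reticulocytes, the youngest red cells, are rich in globin mRNA. Globin mRNA released from broken red cells can be captured together with other cells, and is then counted in cells that did not make it.

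In the gene annotation of the mouse genome GRCm38, Hba-a1 (ENSMUSG00000069919) lies at chr11:32283511-32284465 and Hba-a2 (ENSMUSG00000069917) at chr11:32296489-32297298, both on the plus strand with 12978 bases between their starts. Hbb-bs (ENSMUSG00000052305) lies at chr7:103826534-103828096 and Hbb-bt (ENSMUSG00000073940) at chr7:103812524-103813996, both on the minus strand with starts 14100 bases apart, and each of the 4 globin genes has 3 exons. The others are single genes: Alas2 (ENSMUSG00000025270) at chrX:150547375-150570638, Alad (ENSMUSG00000028393) at chr4:62509169-62519918, Cpox (ENSMUSG00000022742) at chr16:58670292-58717636, and Car2 (ENSMUSG00000027562) at chr3:14886273-14900770.

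The promoters of the abundant globin genes are shown beside that of Alas2. Across 35 pairs of cell type label and organ, Hba-a1, Hbb-bs, and Hbb-bt correlated with the sum of the 4 globin genes, which includes them (Pearson r = 0.981, 0.999, and 0.976). Alas2 correlated with that sum at 0.777. Each window holds the 120 bases before the RefSeq transcript start in GRCm38.p6, read 5′ to 3′ on the strand of the gene. Capitals mark 4 motifs searched on both strands, namely the CACCC box (its 5 letters as named), the CCAAT box (likewise), a TATA-type box with the letters ATATAA, and a GATA-type site with the letters AGATAA. The window of Hba-a1 is chr11:32283552-32283671, that of Hbb-bs chr7:103827929-103828048, that of Hbb-bt chr7:103813924-103814043, and that of Alas2 chrX:150547297-150547416.
Hba-a1: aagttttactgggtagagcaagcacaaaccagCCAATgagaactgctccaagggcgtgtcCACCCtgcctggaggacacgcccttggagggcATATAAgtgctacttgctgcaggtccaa
Hbb-bs: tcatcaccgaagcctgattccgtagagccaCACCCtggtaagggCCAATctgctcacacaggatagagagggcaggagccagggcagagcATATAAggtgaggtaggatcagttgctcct
Hbb-bt: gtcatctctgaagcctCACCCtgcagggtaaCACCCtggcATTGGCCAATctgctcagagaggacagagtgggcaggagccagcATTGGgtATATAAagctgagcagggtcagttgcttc
Alas2: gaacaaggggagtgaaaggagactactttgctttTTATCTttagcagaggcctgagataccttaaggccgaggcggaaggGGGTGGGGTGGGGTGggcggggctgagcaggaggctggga
The window of Hba-a2 (chr11:32296372-32296491) held the same sequence shifted by 3 bases. All 4 globin windows held the CACCC box, the CCAAT box, and the TATA-type box, a combination found in 94 of 32851 promoter windows of the same length (0.286%), although single motifs were common, the CACCC box occurring in 31.7%, the CCAAT box in 21.3%, and the TATA-type box in 4.47%. Hbb-bt held 2 copies of the CACCC box and 3 of the CCAAT box. Alas2 held neither the CCAAT nor the TATA-type box but 3 copies of the CACCC box in a single run and 1 GATA-type site, all on the opposite strand, and the GATA-type site was present in 4.36% of all windows. The window of Cpox held 1 CACCC box, and the windows at both annotated starts of Alad held 1 CACCC box or 1 CCAAT box. A match of letters is a description and not a bound site.

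The copies of each globin are so alike that reads can be assigned to the wrong one. The aligned bases of the Hba-a1 and Hba-a2 transcripts agreed at 537 of 538 positions (99.8%), and 86.9% of 50-base stretches of Hba-a2 also occurred in Hba-a1. Hbb-bs and Hbb-bt agreed at 587 of 626 positions (93.8%) and shared 65.8% of the 50-base stretches of Hbb-bs. The split between copies was therefore uncertain, the more so because the reference genome is of another strain than DBA1/J, and the 236 UMIs of Hba-a2, against 63400 of Hba-a1, were read only as part of the α-globin sum. The sum over the 4 genes is called globin below. UMIs count captured RNA ends, so that levels were compared between genes without division by transcript length.

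The table held 13240 cells, of which 12096 carried 1 of 13 cell type labels of the authors and had a median of 675 UMIs. Annotated UMIs per library ranged from 17748 to 1645734 (median 124586). In all, 59 cell barcodes occurred in more than 1 library, 36 of them in spleen and muscle of S8, and 2 of the 297 cells labelled Erythrocytes carried such a barcode. No doublet caller was run here, and the study's methods give an upper limit of 6000 UMIs per cell against doublets. Globin made up 340793 UMIs of annotated cells, of which 62997 (18.5%) were in cells labelled Erythrocytes and the rest in cells of the other 12 labels. Globin was 4.73% of the annotated UMIs of spleen, 3.55% of those of muscle, and 3.16% of those of joint, but 0.0132% in lung and 0.0265% in skin.

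The cells labelled Erythrocytes were mostly in the spleen, with 261 cells, against 31 in muscle, 5 in joint, and 0 in lung and skin. Muscle of S8 alone gave 17 of the 31, and H7 gave 7, H4 4, and H3, H6, and S3 1 each. The authors listed 7 of the 8 genes, all but Hbb-bs, and the transferrin receptor gene Tfrc as markers of this label, so that levels in Erythrocytes against other labels are a description with no test. The label was therefore checked with 10 other erythroid genes, 9 of which were in the table. All 9 had UMIs in the spleen Erythrocytes, at 4819 counts per 1000000 UMIs (CPM) in sum, against 64.3 CPM in all other labels. Among them, Slc4a1, the anion exchanger of the red cell membrane, was at 1321 CPM, and the transcription factor gene Klf1 at 185 CPM. The genes Mki67 (2003 CPM) and Top2a (1069 CPM), which dividing cells with a nucleus express, were also present, and Erythrocytes is used here only as the authors' label. Markers of granulocytes reached 13237 CPM of non-globin UMIs in the spleen Erythrocytes against 64938 in the other labels.

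Every gene of the set had its higher summed level in Erythrocytes. Summed over organs, β-globin Hbb-bs was at 159119 CPM in Erythrocytes and 19502 CPM in other labels, Hba-a1 at 41745 and 4967 CPM, and Hbb-bt at 19292 and 2324 CPM. Car2 was at 4420.0 and 76.0 CPM, Alad at 1349.8 and 41.8 CPM, Alas2 at 416 and 32.3 CPM, and Cpox at 255 and 14.5 CPM. The 3 abundant globin genes were thus about as uneven between Erythrocytes and the rest as each other, and Car2 and Alad were the most uneven.

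Outside the label, the share of spleen cells with at least 1 UMI was higher for the abundant globin genes than for the enzymes. Such shares depend on how abundant a gene is, and of the genes below only Hbb-bs was not a marker of the label. After thinning of each cell to 400 UMIs, Hbb-bs was found in 248 of the 261 spleen Erythrocytes (95% Wilson interval 91.7% to 97.1%) but also in 67.0% of the other spleen cells (65.4 to 68.7). Hba-a1 was found in 85.1% (80.2 to 88.9) against 29.4% (27.8 to 31.1), and Hbb-bt in 76.2% (70.7 to 81.0) against 25.1% (23.6 to 26.7). Alad was found in 37.5% (31.9 to 43.6) against 2.88% (2.34 to 3.53), Car2 in 69.7% (63.9 to 75.0) against 6.47% (5.65 to 7.40), and Alas2 in 11.1% (7.85 to 15.5) against 1.77% (1.36 to 2.30). Without thinning, Hbb-bs was in 96.9% against 77.9%, Alad in 58.6% against 5.62%, Car2 in 83.9% against 10.0%, and Alas2 in 27.6% against 3.43%, at medians of 839 and 647 UMIs per cell. In joint, 92.0% of thinned cells outside the label held Hbb-bs (98.7% unthinned), so that a single Hbb-bs UMI marked no cell type there. The corresponding thinned shares in lung and skin were 4.79% and 2.14%.

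Within the label, cells differed widely in how much of their RNA was globin. The globin share of the 297 Erythrocytes had a median of 16.6% (quartiles 4.22% and 33.3%) and a maximum of 74.5%. Of these cells, 216 were at 5% or above and 22 at 50% or above, while 81 were below 5% and 7 of them held no globin UMI. Outside the label, 851 cells were at 5% or above and 113 at 50% or above, so that most of the 135 cells in which globin was the majority of the RNA carried another label. These 113 included 45 cells labelled Endothelial cells, 20 labelled Dendritic cells, and 15 labelled Myocytes.

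**Figure D1:**
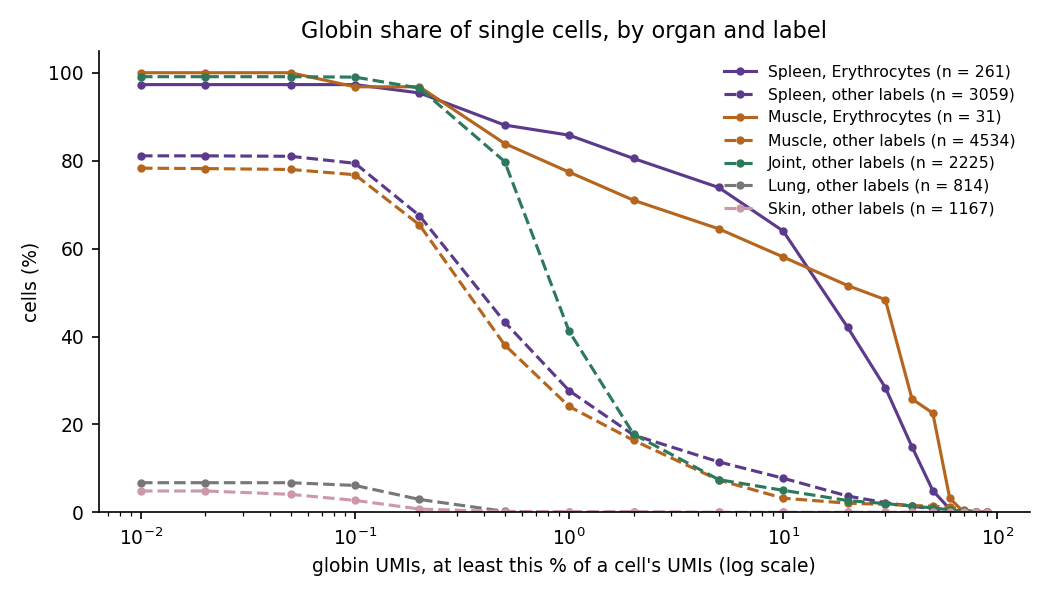
Share of cells (y axis, percent) at or above a given globin share of the cell's UMIs (x axis, percent, log scale), for cells labelled Erythrocytes and for cells of all other labels, by organ. Of the spleen Erythrocytes, 73.9% are at or above 5% globin, 42.1% at or above 20%, 4.98% at or above 50%, and 0 at 70%. Most other cells of spleen, muscle, and joint lie below 5%, but a few reach 70%, and those of lung and skin hold almost no globin.

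The enzymes followed globin closely in spleen Erythrocytes. Expressed as CPM of the UMIs that are not globin, so that globin itself does not dilute them, Alas2 was at 79.7 in the 68 cells with under 5% globin, 465 in the 83 cells with 5 to 20%, 808 in the 97 cells with 20 to 50%, and 1695 in the 13 cells at 50% or above. Alad took the values 526, 2130.3, 2549, and 3108 in the same classes, and Car2 2327, 5461, 9249, and 10737. All 3 genes were thus higher in each class than in the one before. Cpox was at 175, 330.1, 435, and 141, the last from 1 UMI. A list of late erythroid genes, among them Bnip3l and Prdx2, stood at 1307 in the lowest class and 10314 in the highest, and the list of dividing-cell genes was highest in the class of 20 to 50% (12839) and lower at 50% or above (8194). The classes were cut by globin, one of the measures described, and the highest held few cells, so that no test was run.

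Cells outside the label that were as rich in globin had a different enzyme makeup. In the spleen cells of other labels, Alas2 was at 13.3, 237, 547, and 2095 CPM of non-globin UMIs in the same 4 classes, higher in each class than in the one before, as in Erythrocytes. Alad, in contrast, was at 71.8, 204, 189, and 0, the last class holding 11934 non-globin UMIs from 25 cells, for which 3 UMIs would be 251. In muscle, cells of other labels with 50% globin or above had Alas2 at 2167 and Alad at 31.9, and in joint the values were 3037 and 66.0. Over all organs, the 113 cells held 139 UMIs of Alas2 and 2 of Alad, whereas the 22 Erythrocytes of the same globin class held 17 of Alas2 and 28 of Alad. Car2 stood between the patterns, with 63 UMIs in the 113 cells and 102 in the 22 cells. The 113 cells had a median of 1411 UMIs but 276 genes, against 1256 UMIs and 336 genes in the 22 Erythrocytes. Embryonic-type and other globins, led by Hbb-bh1, added 18745 CPM of non-globin UMIs in the 113 cells. In Erythrocytes of all globin classes they were at 1653 in spleen, 4139 in muscle, and 3381 in joint, but these sets hold less globin. Whether reads of the 4 globin genes had been assigned to these genes was not tested. Alad was among the authors' markers of the label, as was Alas2. Its low level outside the label may therefore be partly fixed by the labelling.

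**Figure D2:**
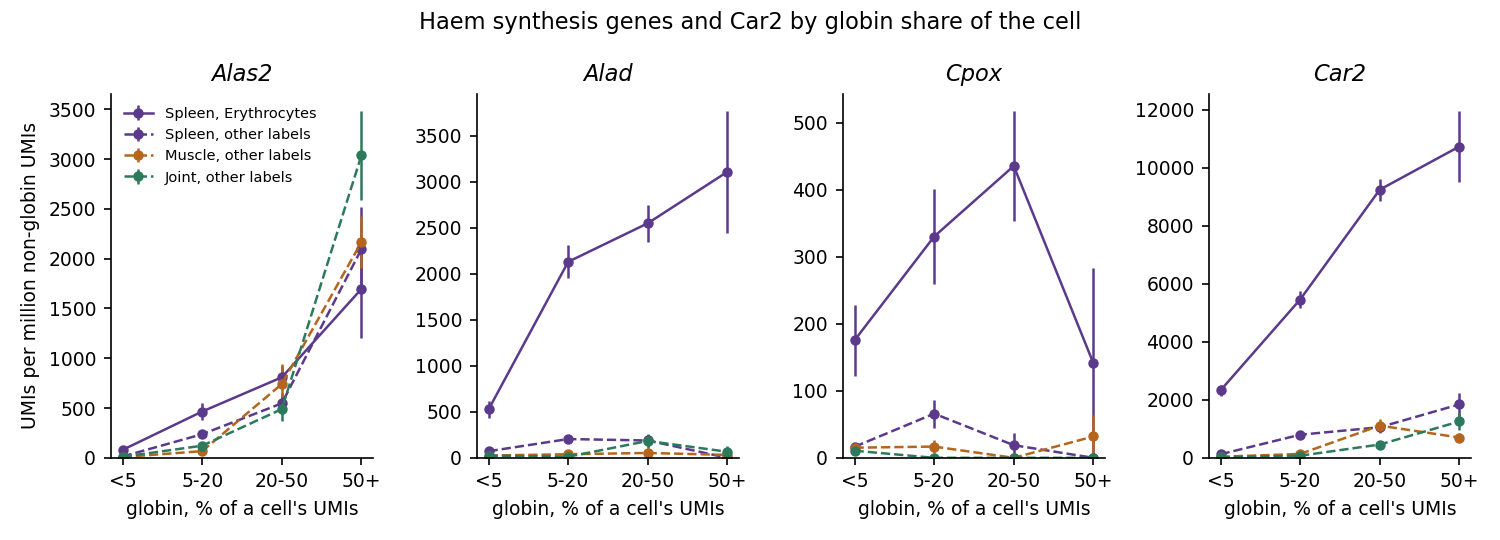
Alas2, Alad, Cpox, and Car2 (1 panel each, y axis, CPM of non-globin UMIs) in 4 classes of cells by globin share (x axis, percent of the cell's UMIs), for spleen Erythrocytes (solid) and for other labels in spleen, muscle, and joint (dashed), with bars of the square root of the UMI count. Alas2 climbs with globin in every line, to 1695 in spleen Erythrocytes and 3037 in other joint cells, while Alad is at 3108 in the first and at 66.0 in the second.

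The ratio of α to β globin also moved with the globin share. In muscle, α-globin was 8.03% of globin UMIs in cells with under 1% globin (95% Wilson interval 7.44 to 8.66), 9.71% at 1 to 5%, 12.7% at 5 to 20%, 19.5% at 20 to 50%, and 23.7% at 50% or above (23.5 to 24.0). In joint the range was from 9.41% to 25.6%, and in spleen from 10.0% to 18.6%. Within single libraries this held in some but not all. In muscle of H4, α-globin was 6.75% (5.64 to 8.05) in the cells with 1 to 5% globin and 24.7% (24.2 to 25.3) in those at 50% or above. In spleen of H4 it was 15.9% (12.8 to 19.6) under 1% globin and 16.8% (14.7 to 19.1) at 50% or above. Within the β chains of muscle, Hbb-bt was at 5.88% of Hbb UMIs in the lowest class and 12.3% in the highest. Globin-poor and globin-rich cells of muscle and joint, and of some spleen libraries, therefore did not hold globin RNAs in 1 ratio. Between mice, α-globin of spleen Erythrocytes was between 14.7% (H7, 95% Wilson interval 12.1 to 17.7) and 20.7% (S6, 19.0 to 22.5) in the 8 mice with at least 5 such cells, and 14 of 200 UMIs in S3 (4.22% to 11.4%). Intervals and floors given here cover counting error only.

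In several libraries, the median cells of the other labels held globin at like levels, which differed between libraries. In muscle of H4, the median cell had 7.30% globin in Endothelial cells, 6.03% in Fibroblasts, 5.94% in Granulocytes, 5.45% in T cells, and 5.36% in Macrophages, with 3.97% in the 6 Dendritic cells, and in muscle of S6 the medians of the 5 labels with more than 3 cells lay between 0.281% and 0.358%. Summed over the cells of a label, the values were pulled up by a few globin-rich cells. In the 57 Endothelial cells of H4, globin was 41.9% of UMIs in sum, and 15 of the cells were at 50% or above. In the 132 Endothelial cells of S5 it was 19.3% in sum with a median of 4.84%, and 21 cells were at 50% or above. In joint of S5, the medians lay between 0.497% in the 2 Basal III cells and 1.51% in Endothelial cells.

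By label over all organs, globin was 22.0% of UMIs in Erythrocytes, 13.9% in Endothelial cells, 11.4% in Dendritic cells, 3.16% in Neutrophils, 2.40% in Granulocytes, 2.17% in Fibroblasts, and 2.07% in Monocytes. It was 1.87% in B cells, 1.86% in NK cells, 1.62% in Myocytes, 1.36% in T cells, 0.915% in Macrophages, and 0.197% in Basal III cells. From Neutrophils down, this order spanned less than the libraries of muscle alone did (0.324% to 21.8%), and the labels came from different organs. Alas2 was highest in the same 3 labels, at 416 CPM in Erythrocytes, 162 in Endothelial cells, and 143 in Dendritic cells. Car2 was at 4420.0 CPM in Erythrocytes, 508 in Dendritic cells, 215 in NK cells, and 145 in T cells, and Alad at 1349.8 in Erythrocytes, 103 in Basal III cells, 94.7 in Dendritic cells, and 12.7 to 78.8 in the others, with 20.1 in Endothelial cells. Cpox was at 255 CPM in Erythrocytes and at most 34.4 in any other label, that of Dendritic cells.

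Dendritic cells departed from the level of the other labels in some libraries of spleen and muscle. In muscle of S8, the 6 such cells had a median of 16.2% globin against 0.370% to 0.611% in the other labels except Erythrocytes, and in muscle of H7 the 18 had one of 4.01%, against 2.15% in Neutrophils and 1.07% to 1.35% in the rest. In spleen of S2, the 218 cells labelled Dendritic cells had a median of 8.44% globin, and 132 of them were at 5% or above, whereas B cells had a median of 0.706% and T cells of 0.484%. In spleen of S1, the 73 Dendritic cells had a median of 6.41%, B cells of 1.32%, and T cells of 1.13%, and in spleen of H4 the 20 Dendritic cells had a median of 0.196%. In the other spleens the medians of these cells were between 0.0978% in H6 and 2.86% in S8. In spleen, 185 Dendritic cells from 7 mice were at 5% globin or above, 132 of them from S2 and 41 from S1. Values of the 185 are therefore mostly those of S1 and S2. The 185 were then set beside the 186 below 5%, from 10 mice, a comparison chosen after the values had been seen. All 9 erythroid check genes were found in the former, at 1606 CPM of non-globin UMIs, and 7 of 9 in the latter, at 255. Alas2 was at 436 against 13.8, Car2 at 1209 against 241, and Alad at 218 against 75.8. The authors' 5 dendritic cell markers summed to 287 and 152, and granulocyte markers to 113345 and 156241. Both sets of cells thus held few UMIs of the label's own markers.

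**Figure D3:**
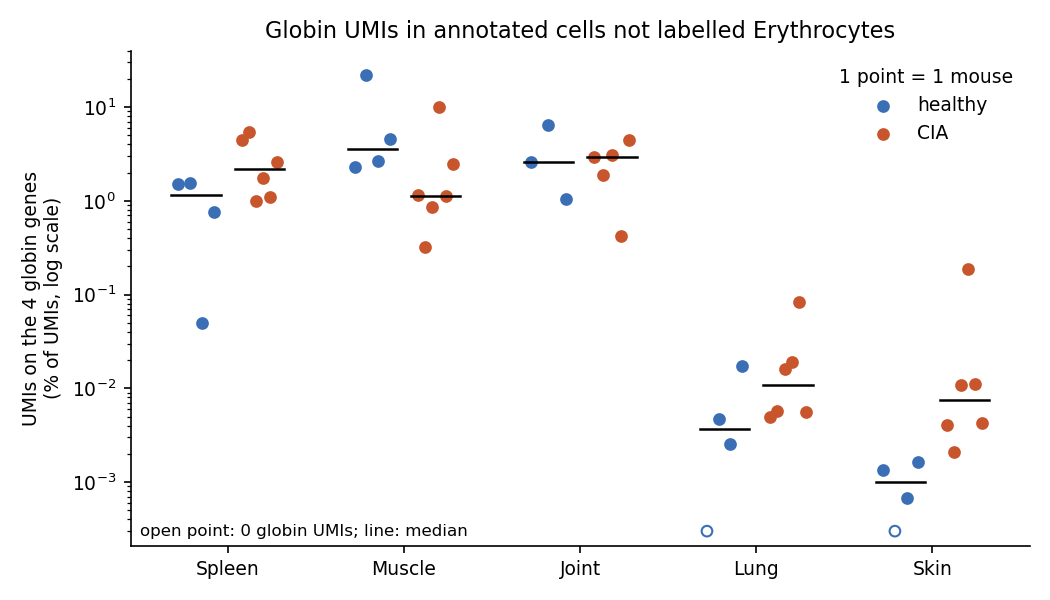
Globin share of UMIs (y axis, percent, log scale) in annotated cells not labelled Erythrocytes, 1 point per mouse, by organ and disease, lines giving medians and open points at the bottom libraries at 0. Spleen, muscle, and joint lie between 0.0496% and 21.8%, lung and skin at or below 0.189%, and healthy and CIA mice overlap in every organ except skin.

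Across the 35 pairs of label and organ, the gene whose level was most like that of globin was Camp, a granule gene of neutrophil precursors (Pearson r = 0.797), followed by S100a9 (0.775), Ngp (0.759), S100a8 (0.758), and Hbb-bh1 (0.755). Among those most like Alas2 were the globin genes Hbb-bh1 (0.845) and Hbb-y (0.844). Globin correlated with Alas2 at 0.777, with Car2 at 0.506, with Alad at 0.339, and with Cpox at 0.224. These are descriptions over pairs that share libraries, with no test. Alad had a level of its own outside blood cells, at 97.2 CPM (73 UMIs) in Basal III cells of skin, in which globin was scarce.

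Disease was compared first within spleen Erythrocytes, over the 3 healthy and 5 CIA mice with at least 5 such cells. Hbb-bs was at 131927 CPM in H3, 82339.9 in H4, and 86066 in H7, and at 171989.9 in S1, 174585 in S2, 172011 in S5, 160999.5 in S6, and 76786 in S8. S8 thus fell below all healthy mice and the other 4 CIA mice above them. Hba-a1 split the mice in the same way, at 28567, 21085, and 16488 CPM in healthy mice against 42161, 48950.4, 37219, 47923, and 16476 CPM in the CIA mice. Alad was at 574, 1054, and 544 CPM in healthy and 1524, 1749, 1199, 913, and 933 CPM in CIA mice, and Car2 at 3302, 3460.1, and 1993 against 3777, 5994, 3177, 6162, and 4508 CPM. The healthy and CIA mice overlapped in all 4 genes.

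The fitted log2 differences in spleen Erythrocytes were positive but did not pass the adjusted threshold. The log2 fold change of CIA against healthy was 1.04 (SE 0.38) for Hba-a1, 0.82 (SE 0.36) for Hbb-bs, 0.95 (SE 0.37) for Hbb-bt, 0.91 (SE 0.32) for Alad, and 0.89 (SE 0.33) for Car2. Adjusted p-values of edgeR's quasi-likelihood test were 0.266 for Hba-a1, Alad, and Car2, 0.295 for Hbb-bt, and 0.407 for Hbb-bs. No gene was called in this fit (0 of 152 tested, 0.00%), and 16 of 152 (10.5%) had an unadjusted p below 0.05, among them these 5. DESeq2 also called none of the 5 genes. Within the experiment named CIA alone, the log2 fold changes were 1.16 for Hba-a1, 1.00 for Hbb-bs, 1.15 for Hbb-bt, 0.45 for Alad, and 1.00 for Car2. Alas2, at 0, 243, and 362 CPM in healthy and 228 to 563 CPM in CIA mice, and Cpox, at 0 to 189 against 59.9 to 340.0 CPM, and Hba-a2 were too low to be tested. Of the related lists, the gene Blvrb of a haem-degrading enzyme had a log2 fold change of 1.14 (SE 0.37, adjusted p = 0.266). The sums came from as few as 6 cells in H7 and 7 in S6, against 99 in S2. Median globin per cell was 3.51% to 19.1% in these healthy mice and 4.91% to 23.1% in the CIA mice. How far fewer globin-poor cells and more globin per cell contributed to the sums was not tested.

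The share of spleen cells labelled Erythrocytes was 7.12% ± 5.01 (SD, n = 6) in CIA and 4.32% ± 3.09 (SD, n = 4) in healthy mice, which did not differ beyond the spread (difference 2.80 percentage points, two-sided exact permutation p = 0.390, adjusted p = 0.905 over 3 comparisons). Per mouse it was 7.27% in H3, 6.50% in H4, 0.752% in H6, and 2.76% in H7, and 15.4% in S1, 10.9% in S2, 1.95% in S3, 5.01% in S5, 4.70% in S6, and 4.78% in S8. In muscle the share was 1.18% ± 2.61 (SD, n = 6) in CIA and 1.41% ± 0.869 (SD, n = 4) in healthy mice (difference -0.233, exact permutation p = 0.819). Without S8, which alone was at 6.49%, the muscle difference was -1.30 (exact permutation p = 0.0317). The smallest exact permutation p that the 10 mice allow in a single direction is 0.00476, and the two-sided tests cannot reach it.

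Outside the label, globin in the spleen was on average higher in CIA, but the groups overlapped. It was 1.53% of UMIs in H3, 1.55% in H4, 0.0496% in H6, and 0.760% in H7, and 4.44% in S1, 5.47% in S2, 1.01% in S3, 1.77% in S5, 1.09% in S6, and 2.57% in S8. H6 stood far below all others, and S3 and S6 lay within the healthy range. The fitted log2 fold changes were 1.63 (SE 0.82) for Hba-a1, 1.52 (SE 0.75) for Hbb-bs, and 1.60 (SE 0.85) for Hbb-bt, with adjusted p-values of 0.852, 0.825, and 0.870 in edgeR. Car2 had a log2 fold change of 1.10 (SE 0.40, adjusted p = 0.551 in edgeR) and Alad one of 0.39 (SE 0.47, adjusted p = 0.985). Alas2 (0 to 26.7 CPM in healthy and 0 to 99.9 in CIA mice), Cpox (0 to 24.1 and 3.77 to 24.0), and Hba-a2 (0 to 9.58 and 0 to 26.4) were too low to be tested. No member was called, against 4 of 2762 genes (0.145%) in the fit and 174 (6.30%) at an unadjusted p below 0.05. Within the experiment named CIA the values for Hba-a1, Hbb-bs, Hbb-bt, Alad, and Car2 were 1.24, 1.11, 0.98, 0.32, and 1.09.

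Markers of other cell types moved with disease in the same spleen sums. The 4 granulocyte markers were all detected in every library and summed to 3463 to 23709 CPM of non-globin UMIs in healthy and 21099.9 to 155288 in CIA mice. The erythroid check genes summed to 21.1 to 190 in healthy mice, in which 2 to 8 of 9 were detected, and to 47.9 to 372 in CIA mice, in which 4 to 9 were. The share of annotated cells labelled Dendritic cells was between 0.752% and 4.07% in healthy mice, and 16.3% in S1, 23.9% in S2, 9.09% in S3, 2.51% in S5, 9.40% in S6, and 4.78% in S8, so that S3 and S6 lay above the healthy range in this share and within it in globin. Their part in the globin values was not tested.

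**Figure D4:**
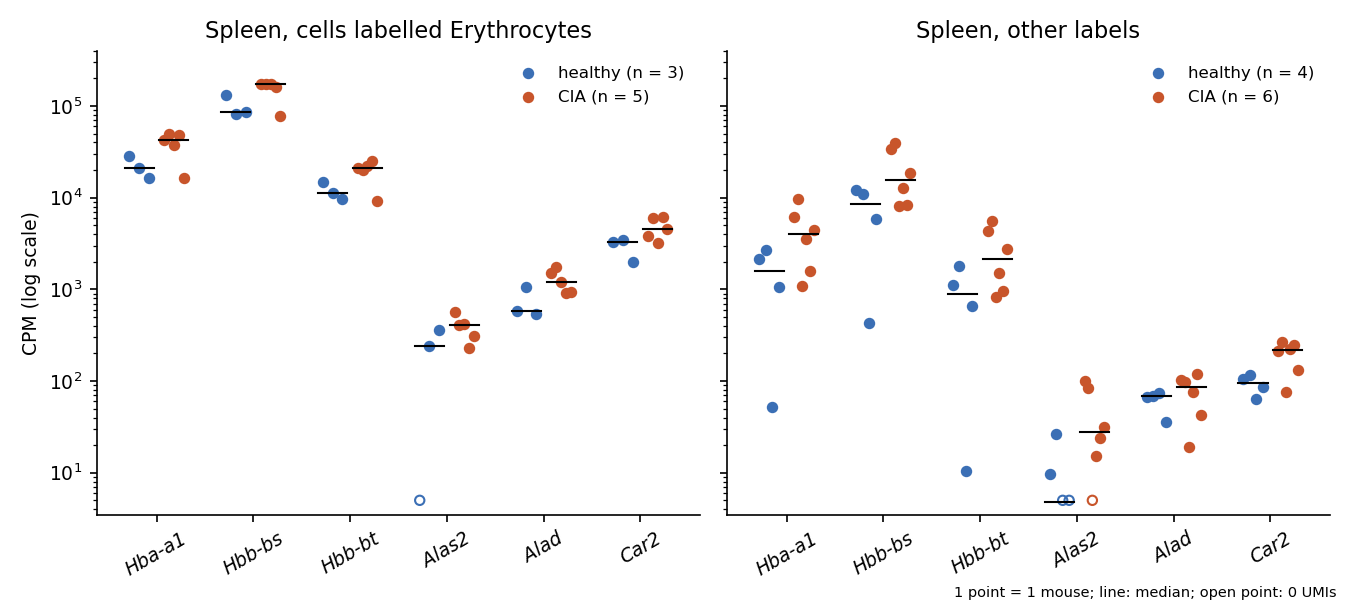
Levels (y axis, CPM, log scale) of 6 of the genes in spleen (x axis), 1 point per mouse with the median as a line, for healthy and CIA mice, in cells labelled Erythrocytes (mice with at least 5 such cells) and in the cells of all other labels. The groups overlap for each gene in both panels, and among the other labels H6 is the low point of the globin genes and Car2, at 432 CPM of Hbb-bs, but not of Alad.

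In muscle, globin outside the label was on average lower in CIA, again without a call. It was 2.32% in H3, 21.8% in H4, 2.68% in H6, and 4.56% in H7, and 1.15% in S1, 0.324% in S2, 0.853% in S3, 10.0% in S5, 1.13% in S6, and 2.46% in S8. The log2 fold changes were -2.10 (SE 1.07) for Hba-a1, -1.75 (SE 1.00) for Hbb-bs, and -1.95 (SE 1.01) for Hbb-bt, all with an adjusted p of 0.999 in edgeR, in a fit that called 2 of 3563 genes (0.0561%) and had 141 (3.96%) at an unadjusted p below 0.05. With lysis as a further term they were -1.79, -1.49, and -1.61. The other 5 genes were too low to be tested, Car2 being at 36.6 to 205 CPM in healthy and 0 to 245 CPM in CIA mice, Alad at 0 to 25.3 and 24.0 to 62.8 CPM, Alas2 at 0 to 186 and 1.95 to 98.0 CPM, Cpox at 0 to 14.0 and 0 to 27.2 CPM, and Hba-a2 at 3.83 to 199 and 0 to 169 CPM. Endothelial cell markers summed to 331 to 5631 CPM of non-globin UMIs in healthy and 70.2 to 3549.7 in CIA mice, and granulocyte markers to 35045 to 128701 and 2618 to 29425, respectively, so that cell content differed between these groups too. The part of either was not tested.

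In joint, globin outside the label was 2.62% in H3, 6.44% in H4, and 1.06% in H7, and 2.96% in S1, 1.88% in S3, 3.11% in S5, 0.420% in S6, and 4.44% in S8. The log2 fold changes were -0.45 (SE 0.82) for Hba-a1, -0.18 (SE 0.71) for Hbb-bs, and -0.18 (SE 0.81) for Hbb-bt (adjusted p = 0.867, 0.943, and 0.951 in edgeR), against a background of 3 of 2366 genes called (0.127%) and 253 (10.7%) at an unadjusted p below 0.05. The other 5 genes were too low to be tested, at 14.3 CPM or less of Cpox in all mice but H3 (16.7) and H7 (41.7), 78.4 CPM or less of Alad, 69.5 or less of Car2, 57.1 or less of Alas2, and 89.1 or less of Hba-a2. H4 set the sign, since without it the values were 0.76, 0.86, and 1.07. In joint, the organ inflamed in this model, the globin difference was within the spread between mice.

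In lung, no member passed the count filter, in a fit that called 34 of 686 genes (4.96%) and had 109 (15.9%) at an unadjusted p below 0.05. Globin was between 0% and 0.0175% in healthy mice and between 0.00492% and 0.0837% in CIA mice, S6 being the highest. In skin, Alad was the only member tested, at 35.9 to 107 CPM in healthy and 50.4 to 111 CPM in CIA mice (log2 fold change -0.35, SE 0.36, adjusted p = 0.896 in edgeR), and 0 of 2180 genes were called (0.00%), with 160 (7.34%) at an unadjusted p below 0.05 and 7 called by DESeq2. Skin globin was between 0% and 0.00166% in healthy mice and 0.00210% and 0.189% in CIA mice. The groups did not overlap, but 5 of the 6 CIA mice were at or below 0.0111%, and the healthy libraries held 4 globin UMIs in all, so that the difference rested on very few molecules apart from S5.

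The fitted log2 fold changes of the globin genes had opposite signs in spleen and muscle, though none was called in either organ. The difference between organs was tested with an organ-by-disease term over the 48 libraries of 10 mice. This fit took libraries of the same mouse as independent. Hbb-bs had an adjusted p of 0.225 in edgeR, Hba-a1 an adjusted p of 0.633, and Hbb-bt one of 0.722. The adjusted p was 0.830 for Car2, 0.896 for Alad, 0.940 for Alas2, and 0.999 for Hba-a2, and Cpox was too low to be tested. No member was called, against 51 of 4832 genes (1.06%) and 364 (7.53%) at an unadjusted p below 0.05. With the mouse as a block, the adjusted p was 0.137 for Hbb-bs and 0.243 for Hba-a1. Among related genes, Alas1, the ALAS enzyme of other tissues (adjusted p = 0.0116), and Hp, which encodes the haemoglobin-binding protein haptoglobin (adjusted p = 0.00704), were called as differing between organs in the edgeR fit without the block. Cell content also differed between the groups, and its part in these calls was not tested.

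Red cell lysis was compared in muscle, where 4 samples had not been lysed (H3, H4, S1, S5) and 6 had (H6, H7, S2, S3, S6, S8). Globin outside the label was 8.82% ± 9.50 (SD, n = 4) without and 2.00% ± 1.56 (SD, n = 6) with lysis. The 2 highest values, 21.8% in H4 and 10.0% in S5, were both from samples without lysis, but the other two of that group, at 2.32% and 1.15%, lay within the range of the lysed samples (0.324% to 4.56%). Hbb-bs, the most abundant member, was at 18882, 152809, 10229.6, and 74524 CPM in H3, H4, S1, and S5, and between 2493 and 33956 CPM (median 13012) in the lysed samples.

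With disease as a covariate, Hbb-bs was lower in the lysed samples, with a log2 difference of -2.34 (SE 0.68, adjusted p = 0.0373 in edgeR). Hba-a1 and Hbb-bt had differences of like size, -2.32 (SE 0.81) and -2.19 (SE 0.78), that missed the threshold (adjusted p = 0.0842 and 0.0928). This was 1 member called, in a fit that called 371 of 3563 genes (10.4%), 230 of them lower in lysed samples (6.46%), and had 826 (23.2%) at an unadjusted p below 0.05, so that a call here is common. The call for Hbb-bs was lost without any one of H4, H6, H7, S2, S3, S5, or S6, when cells labelled Erythrocytes were included (adjusted p = 0.102), in CIA mice alone (adjusted p = 0.0605), and without cells of shared barcodes (adjusted p = 0.0597), and its sign remained negative in all 20 alternatives (-2.73 to -1.44). Without H4 it was -1.85 (adjusted p = 0.150) and without S5 -1.44 (adjusted p = 0.407).

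Other genes of the lists that fell with lysis were Hbb-bh1, a β-like globin (log2 difference -2.94, SE 0.74, adjusted p = 0.0156, the only other globin tested), and the water channel gene Aqp1 (-3.88, SE 0.47, adjusted p = 0.00018, 1 of 3 erythroid membrane genes tested), which is also expressed in endothelial cells. No haem handling, other haem synthesis, late erythroid, or dividing-cell gene was called. The lysed samples also held fewer endothelial cells. The label Endothelial cells took 22.9% of annotated cells in H3, 33.9% in H4, 17.8% in S1, and 37.9% in S5, but between 0% and 3.12% in the lysed samples. The 3 endothelial markers were all detected in each sample without lysis and summed to 2285 to 5631 CPM of non-globin UMIs, against 70.2 to 679 in the lysed samples, where 1 to 3 were detected, so that the groups did not overlap. Lysis and endothelial content cannot be told apart in these 10 samples.

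**Figure D5:**
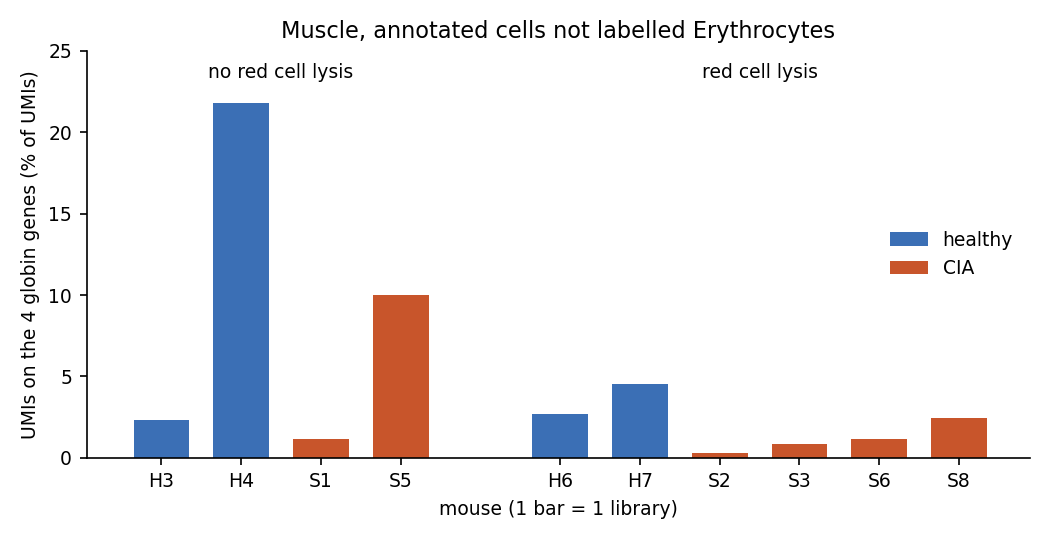
Globin share of UMIs (y axis, percent) in annotated muscle cells not labelled Erythrocytes, 1 bar per mouse (x axis), by red cell lysis, with healthy and CIA mice in different colours. H4 and S5, both without lysis, stand at 21.8% and 10.0%, and the other samples without lysis lie among the lysed ones.

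The share of the label itself did not differ with lysis beyond the spread. Erythrocytes were 1.48% ± 2.52 (SD, n = 6) of annotated muscle cells in lysed and 0.952% ± 1.17 (SD, n = 4) in other samples (difference 0.529, two-sided exact permutation p = 0.905), S8 with 6.49% being a lysed sample. Alas2 outside the label was at 0 to 186 CPM (median 63.9) without lysis and 1.95 to 50.5 CPM (median 17.6) with it, and was too low to be tested. Alad, at 0 to 29.7 CPM without and 3.83 to 62.8 CPM with lysis, showed no lower level in lysed samples. Car2 was at 0 to 64.3 CPM (median 23.2) without and 16.0 to 245 CPM (median 34.7) with lysis, Cpox at 0 to 7.35 and 3.83 to 27.2 CPM, and Hba-a2 at 0 to 199 and 0 to 22.8 CPM, and none of these was tested. All spleen samples had been lysed, and globin outside the label was 0.0496% to 5.47% of their UMIs.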

How the data were processed

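Seq-Well captures the polyadenylated ends of RNA from single cells with cell barcodes and UMIs. The authors aligned reads to GRCm38 with STAR, kept primary alignments, and made UMI tables with Drop-seq tools, bcl2fastq, and Picard, keeping cells with at least 400 UMIs, 200 genes, and less than 20% mitochondrial UMIs. The processing notes also list the builds GRCh38 and mm9, whose role is not given in the sources used here. The authors deposited a table of UMI counts as whole numbers for every gene in every cell, not normalized, and a table of cell type labels. The stated upper limit of 6000 UMIs against doublets was exceeded by the highest annotated cell (6239 UMIs).

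From the deposited counts, UMIs were summed per library over annotated cells labelled Erythrocytes and over those of all other labels, and levels are CPM of these sums. The mouse was the replicate. Sums were compared with edgeR 4.0.16 (quasi-likelihood test, TMM factors, filterByExpr, Benjamini-Hochberg adjustment over all genes of a fit, threshold 0.05) in R 4.3.3, and with DESeq2 1.42.0 as an alternative. SEs were derived from the log2 fold change and the F statistic. Shares of cells were compared by exact permutation tests. Other steps used Python 3.11.15, numpy 2.4.6, scipy 1.17.1, and matplotlib 3.10.9. Promoters are from RefSeq (GRCm38.p6) and gene positions from GENCODE. The tests across genes were tested on simulated data.

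The 8 genes, the gene lists, and the tests were chosen with earlier results of these data known. All 8 genes were to be named in each comparison (in lung and skin, those not tested as the globin sum only), and from each list at most the 3 genes past the threshold with the largest change. Blvrb, the genes of the label check, and other list genes short of the threshold were named after their values had been seen. Some genes of the lists are not reported here.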

Additional observations from a re-analysis of the deposited data

Results flagged for a closer look

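Within each group of 4 to 6 mice, the gap between the highest or lowest library and the next was set against the group's range. This was done over 55 groups of values, of which chance picks out about 1 in 20 if values are normal and independent. The groups overlapped, since the globin sum holds the UMIs of its genes, and normality was not tested. The rate that applies here is therefore not known. In muscle cells outside the label Erythrocytes, H4 lay far above the other healthy mice, with 46094 CPM of Hba-a1 (others 2909 to 7832), 199 CPM of Hba-a2 (3.83 to 19.6), 152809 CPM of Hbb-bs (17887 to 33956), 18649 CPM of Hbb-bt (1354 to 3806), and 21.8% globin in sum (2.32% to 4.56%). S5 lay far above the other CIA mice in muscle, with 17744 CPM of Hba-a1 (others 481 to 4331), 169 CPM of Hba-a2 (0 to 22.8), 74524 CPM of Hbb-bs (2493 to 17827), 7603 CPM of Hbb-bt (270.5 to 2465), 98.0 CPM of Alas2 (1.95 to 29.7), and 10.0% globin in sum (0.324% to 2.46%). Neither sample had been lysed.

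In muscle of S8, Alad was at 62.8 CPM (other CIA mice 24.0 to 29.7) and Car2 at 245 CPM (0 to 31.1) outside the label, and 6.49% of the annotated cells were labelled Erythrocytes (0% to 0.571%). Car2 was at 205 CPM in muscle of H7 (other healthy mice 36.6 to 64.3). In lung of S6, Hbb-bs was at 724 CPM (0 to 164) and globin at 0.0837% of UMIs (0.00492% to 0.0191%). In skin of S5, Hbb-bs was at 1807 CPM (12.6 to 86.0) and globin at 0.189% (0.00210% to 0.0111%).

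Cells without a cell type label entered no comparison. In spleen, globin was 4.91% of their UMIs in S1, 9.03% in S2, and 5.42% in S8, above the range of the healthy mice (0.0265% to 2.79%), and 0.345% to 1.04% in the other CIA mice, within it.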

How the results depend on the processing

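No member was called for CIA against healthy in muscle, joint, lung, or spleen Erythrocytes under any alternative run. Without a filter on low counts, 3 members were called in spleen outside the label, 1 in skin, 6 for lysis in muscle, and 3 in the organ-by-disease test. The count for lysis, 1 as reported, was 0 with all annotated cells, 0 in CIA mice alone, 2 without globin-rich cells, 3 with the experiment as a further term, and 0 without cells of shared barcodes, an alternative chosen after seeing the data. Leaving out 1 mouse gave 0 to 4 members for lysis. Leaving out 1 library gave 0 to 2 in the organ-by-disease test, with 2 called without muscle of S5 and 1 without muscle of S8. The difference in the share labelled Erythrocytes ranged from 1.14 to 3.84 percentage points in spleen, from -1.30 to 0.0907 for CIA in muscle, and from -0.472 to 1.01 for lysis when 1 mouse was left out, and in the experiment CIA alone the muscle value was 0.759. In joint, the log2 fold changes ranged from -0.97 to 0.76 for Hba-a1, -0.63 to 0.86 for Hbb-bs, and -0.73 to 1.07 for Hbb-bt, lowest without H7 and highest without H4, and Hbb-bs and Hbb-bt were at 0.06 and 0.05 without S6. The cause was not tested.

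Healthy and CIA mice are separate animals that share only the numbers 3 and 6. With the number as a replicate block, those numbers alone set the CIA effect. In spleen outside the label, 2 members were called (Hbb-bs 1.74, adjusted p = 0.00014, and Hbb-bt 1.49, adjusted p = 0.0158, in edgeR), and Alad was -0.12. The pairs differed in direction there. Hbb-bs was at 12018 CPM in H3 and 8179 in S3, but at 432 in H6 and 8276 in S6. The positive sign thus came from the low value of H6, and these p-values rest on very few mice. No member was called in muscle, lung, or skin. No block could be fitted in joint or in spleen Erythrocytes, which share fewer than 2 numbers.

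Counts over all genes also moved. In spleen outside the label, 4 genes were called as reported, 49 by DESeq2, 177 without the filter, and 48 with the block. The counts were 3, and 46 by DESeq2, in joint, and 2, and 10 by DESeq2, in muscle. Without the filter they were 66 in joint, 60 in muscle, 78 in lung (34 as reported), 32 in skin (0), 1183 for lysis (371), and 234 in the organ-by-disease test (51), which had 32 with the mouse as a block. Without S5, 167 genes were called for lysis. Hba-a2, Alas2, and Cpox had too few UMIs to pass the count filter in any comparison within an organ.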

Other observations

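The 1144 cells without a label also held globin. It was 3.15% of their UMIs in spleen, 8.74% in muscle, 6.96% in joint, 0.0131% in lung, and 0.00850% in skin, where 3 UMIs would be 0.00232%. The values of muscle and joint were above those of the annotated cells (3.55% and 3.16%), and that of spleen was below (4.73%). In muscle of H4 the 20 cells without a label held 7912 globin UMIs among 16498, and in joint of H4 the 9 such cells were at 33.1%. In all, 19 cells without a label had 50% globin or above.

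Hp, the haptoglobin gene, and Alas1 were called as differing between organs in their response to CIA, in the fit without the mouse as a block. Neither passed the threshold within an organ. Outside the label Erythrocytes, Hp had a log2 fold change in CIA of 3.23 (SE 0.71, adjusted p = 0.0923 in edgeR) in spleen, 2.29 (SE 0.51, adjusted p = 0.0935) in joint, and -1.44 (SE 0.57, adjusted p = 0.999) in muscle. Granulocyte markers moved in the same directions, with medians in healthy and CIA mice of 6925 and 60302 CPM of non-globin UMIs in spleen, 46838 and 116854 in joint, and 93594 and 23095 in muscle. The part of granulocyte content in Hp was not tested. Alas1 had one of -2.03 (SE 0.44, adjusted p = 0.303 in edgeR) in muscle and 1.09 (SE 0.69, adjusted p = 0.566) in joint.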
